A study of Mus musculus with 8 samples.

Results

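Sterol and fatty acid synthesis was followed through 35 genes in mouse kidneys recovering from ischaemia-reperfusion injury (IRI), in which blood flow to the kidney is stopped and then restored. The genes were taken by symbol, and the choice was made with earlier results of these data known. They encode enzymes that build cholesterol, proteins that control the SREBP transcription factors, and enzymes that make, lengthen and desaturate fatty acids. All 35 were found among the 34450 genes of the deposited table. The 4 hypoxia libraries, numbered 1 to 4, came from kidneys of C57BL/6J mice that were 8 weeks old and had breathed low oxygen before IRI. The 4 normoxia libraries, numbered 5 to 8, came from mice of the same strain and age held at normal oxygen before IRI. All kidneys were injured and were taken at day 3, so every difference is between injured kidneys, and no uninjured kidney was analysed here. The labels give neither the oxygen level nor the length of exposure, and do not tie a library to an animal, so a p-value here speaks of variation among these 8 libraries, part of which may be technical.

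Cells make cholesterol from acetyl-CoA through mevalonate, squalene and lanosterol, and make fatty acids from the same acetyl-CoA through malonyl-CoA. When sterols are scarce, SCAP carries SREBP precursors out of the endoplasmic reticulum for cleavage, and the freed factors switch on most genes of both pathways, while INSIG proteins hold SCAP back when sterols are plentiful. Tubule cells of the kidney normally burn fatty acids for energy, and lipid is known to build up in them after ischaemic injury.

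Values were FPKM, fragments scaled to transcript length and to the mapped fragments of the library, which allow levels of different genes to be compared per length. All 35 genes had a mean of at least 0.5 FPKM over the 8 libraries and were among the 14444 genes tested, and 27 of them had a mean of at least 2 FPKM. Depth, estimated from the spacing of low values, was about 8760000 to 14600000 fragments per library, of which about 1780000 to 8800000 lay in protein-coding genes. Short genes near 1 FPKM therefore rest on few fragments. Ribosomal transcripts took between 13.5% (normoxia library 5) and 72.5% (normoxia library 8) of the fragments. Normoxia library 5 was the least like the rest (mean Spearman correlation 0.633, against 0.767 to 0.832 for the other 7 libraries). Hypoxia libraries 1 and 2 resembled each other (0.924), as did 3 and 4 (0.921), more than across the pairs (0.833 to 0.853). Kidney tissue was evident from Kap, an androgen-regulated proximal tubule gene, which had at least 178.2 FPKM in every library.

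Scd1, the main desaturase that turns stearate into oleate, rose after hypoxia, and it was the 1 gene of the 35 to pass the test. Its mean was 7.39 times that of the normoxia libraries. Acacb, which makes the malonyl-CoA that restrains fatty acid entry into mitochondria, had a mean 5.06 times that of the normoxia libraries and narrowly missed the threshold. Cyp51, the lanosterol demethylase, had a mean 2.38 times that of the normoxia libraries and missed it by more. Fasn, Acaca and Acly, which carry out the core of fatty acid synthesis, had means 0.748, 0.762 and 0.905 times those of the normoxia libraries. None of these 3 passed, and their log2 changes were smaller than their standard errors. With libraries scaled to a common level (TMM) and normoxia library 5 left out, the log2 changes were 0.113, 0.030 and 0.085. Their direction thus depended on the processing.

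The test was limma's moderated test on log2(FPKM + 0.5), two-sided, with Benjamini-Hochberg adjustment over all 14444 genes and a threshold of 0.05. By it 1 of the 35 genes rose, where 0.305% of all tested genes rose, and 0 of the 35 fell, where 0.602% of all tested genes fell. At an unadjusted p under 0.05 in limma, 2 of the 35 were higher (Scd1 and Acacb) and 1 was lower (Fdps), beside 2.52% higher and 6.84% lower of all tested genes. The 4 hypoxia values lay wholly above the 4 normoxia values for 2 of the 35, again Scd1 and Acacb, beside 1.86% of all tested genes. No gene of the 35 had its hypoxia values wholly below, beside 3.06% of all. The log2 change was positive for 24 of the 35, and for 39.0% of all tested genes. The median log2 change of the 35 was 0.26, against -0.14 for all tested genes, a difference of 0.40. That median depended on single libraries: it was 0.14 without hypoxia library 1, 0.030 without hypoxia library 2, 0.41 without hypoxia library 4, and 0.15, 0.47 and 0.063 without normoxia libraries 6, 7 and 8. Its difference from all tested genes was 0.32 to 0.49 with any 1 library left out. In bulk tissue, more cells of a type and more RNA per cell cannot be told apart.

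**Figure D1:**
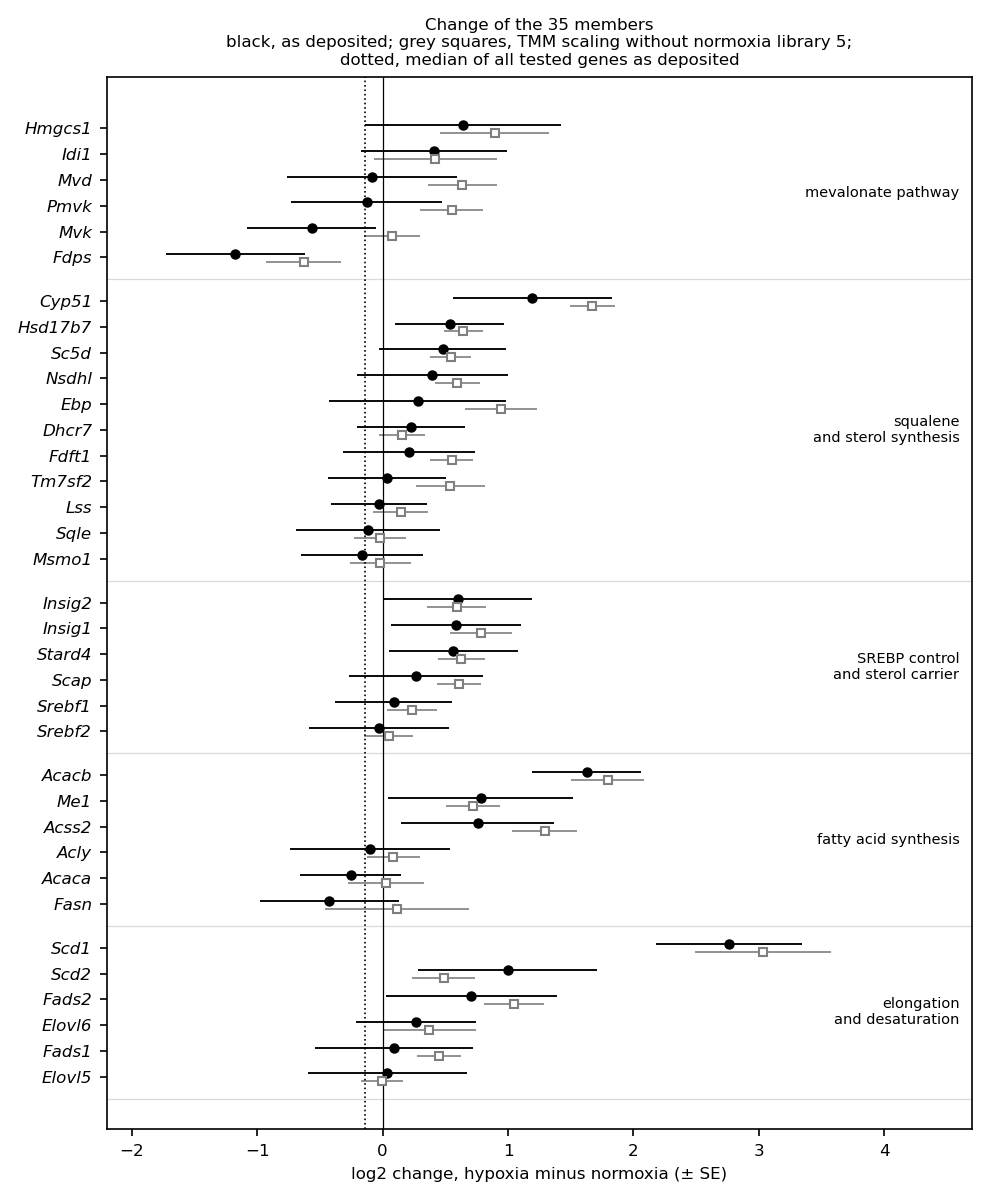
Log2 change in log2(FPKM + 0.5), hypoxia minus normoxia, of each of the 35 genes, grouped by role, with its standard error. Black points are values as deposited (n = 4 libraries each) and grey squares are values after TMM scaling without normoxia library 5. The black point of Scd1 lies farthest to the right at 2.76 and that of Fdps farthest to the left at -1.17, and the dotted line marks the median of all tested genes.

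Elongation and desaturation genes were positive as a group: 1 of 6 rose, none fell, all 6 log2 changes were above 0, and their median was 0.48. Scd1 (ENSMUSG00000037071, chromosome 19, 44394455 to 44407879 on the minus strand of GRCm38) had 12.9, 15.8, 19.6 and 11.8 FPKM in hypoxia libraries 1 to 4, against 1.75, 4, 1.77 and 0.61 FPKM in normoxia libraries 5 to 8. The lowest hypoxia value was well above the highest normoxia value, and both pairs of hypoxia libraries were high. The hypoxia libraries averaged 15.02 ± 3.47 FPKM and the normoxia libraries 2.03 ± 1.42 FPKM (SD, 4 libraries each). Its log2 change was 2.76 ± 0.58 (SE, limma adjusted p = 0.0221). The change stayed between 2.42 and 3.10 in every alternative processing that was run. The call itself rested on few libraries: the limma adjusted p was 0.0509 without normoxia library 5, 0.115 without normoxia library 7, and 0.173 when hypoxia libraries 1 and 2, and 3 and 4, were averaged to 2 samples. It was also lost when no filter on low genes was used (adjusted p = 0.261).

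Scd2, a close paralog of Scd1 that is widely expressed, had 13.7, 11.3, 9.32 and 8.79 FPKM after hypoxia, against 0.54, 8.88, 15.1 and 5.81 FPKM after normoxia. The groups overlapped, and the low normoxia mean came from library 5 (log2 change 1.0 ± 0.71, SE, limma adjusted p = 0.82). Without that library and with TMM scaling its log2 change was 0.49. Because the 2 coding sequences are similar, fragments of one gene could have been assigned to the other. Fads2, the first desaturase of polyunsaturated fatty acid synthesis, had 19.8, 34.3, 12.2 and 13.6 FPKM after hypoxia, against 12.2, 12.2, 17.9 and 5.54 FPKM after normoxia. Its groups overlapped and its log2 change was 0.70 ± 0.68 (SE, limma adjusted p = 0.918). Fads1, the next desaturase of that route, ranged between 5.02 and 15.8 FPKM after hypoxia and between 4.63 and 13.1 FPKM after normoxia. The elongase gene Elovl5, which acts on polyunsaturated chains, spanned 5.41 to 12.4 FPKM after hypoxia and 3.73 to 17.6 FPKM after normoxia. Elovl6, which lengthens palmitate to stearate, the substrate of Scd1, spanned 1.08 to 2.56 FPKM after hypoxia and 0.79 to 3.58 FPKM after normoxia. These 3 genes had log2 changes of 0.09, 0.04 and 0.26, all smaller than their standard errors.

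**Figure D2:**
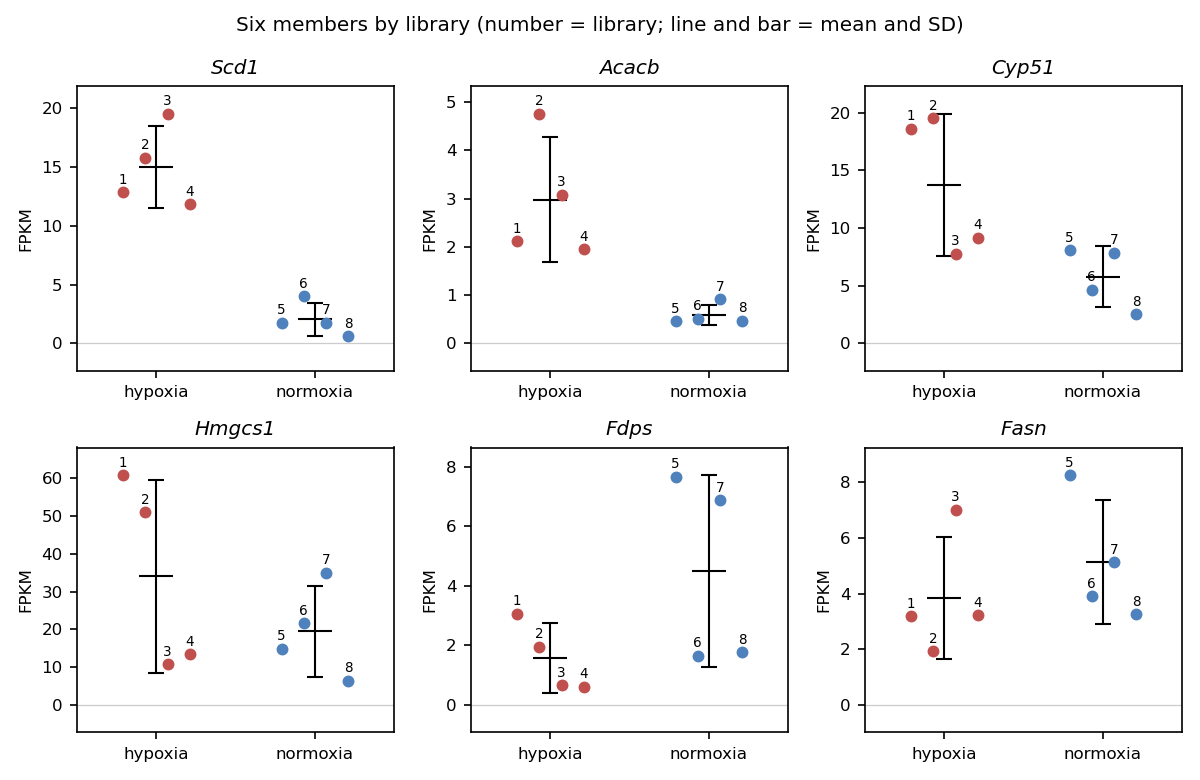
FPKM on linear axes of 6 genes in each library, hypoxia on the left and normoxia on the right of each panel; points are libraries with their numbers, and the line and bar give the mean and SD (n = 4). The 4 hypoxia points lie above all normoxia points for Scd1 and Acacb, whereas hypoxia libraries 1 and 2 lie apart from 3 and 4 for Cyp51 and Hmgcs1.

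Fatty acid synthesis was uneven: none of 6 genes passed, 3 log2 changes were above 0, and the median was 0.33. Acacb (ENSMUSG00000042010, chromosome 5, 114146535 to 114250761, plus strand) had 2.11, 4.76, 3.08 and 1.95 FPKM after hypoxia, against 0.46, 0.51, 0.91 and 0.47 FPKM after normoxia. Every hypoxia library was above every normoxia library, and the normoxia values were low and close together apart from library 7. The hypoxia libraries averaged 2.98 ± 1.29 FPKM and the normoxia libraries 0.588 ± 0.216 FPKM (SD, 4 libraries each), and the log2 change of 1.63 ± 0.44 (SE) had a limma adjusted p of 0.0738. With TMM scaling, which sets the bulk of the genes of all libraries to a common level, Acacb passed (log2 change 1.77, limma adjusted p = 0.0220). It passed in 6 of the 20 alternatives in which it was tested. Without such scaling its limma adjusted p was 0.0889 to 0.204 with any 1 library left out. It was 0.387 with no filter and 0.532 with hypoxia libraries averaged to 2 samples.

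Acaca, the paralog whose product supplies malonyl-CoA for synthesis in the cytosol, had 0.84, 0.82, 1.17 and 0.76 FPKM after hypoxia, against 1.32, 1, 1.52 and 0.87 FPKM after normoxia. These values overlapped and the log2 change was -0.26 ± 0.40 (SE). Fasn, the synthase that assembles palmitate, had 3.19, 1.94, 7.02 and 3.22 FPKM after hypoxia, against 8.26, 3.91, 5.13 and 3.26 FPKM after normoxia. Hypoxia library 3 and normoxia library 5 were high, and the log2 change was -0.42 ± 0.55 (SE, limma adjusted p = 0.978). Acly, which splits citrate into acetyl-CoA, spanned 8.99 to 14.4 FPKM after hypoxia and 9.68 to 20.3 FPKM after normoxia. Me1, a malic enzyme that supplies NADPH for lipid synthesis, was among the most abundant of the 35, with 48.4, 45.6, 16.5 and 17.6 FPKM after hypoxia, against 7.47, 21.3, 32.5 and 13.3 FPKM after normoxia. Its log2 change of 0.78 ± 0.74 (SE) was about the size of its error. Acss2, which makes acetyl-CoA from acetate, had 11.2, 12.7, 3.76 and 4.71 FPKM after hypoxia, against 7.18, 4.34, 4.95 and 1.56 FPKM after normoxia, with hypoxia libraries 1 and 2 the highest (log2 change 0.76 ± 0.61, SE, limma adjusted p = 0.869).

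**Figure D3:**
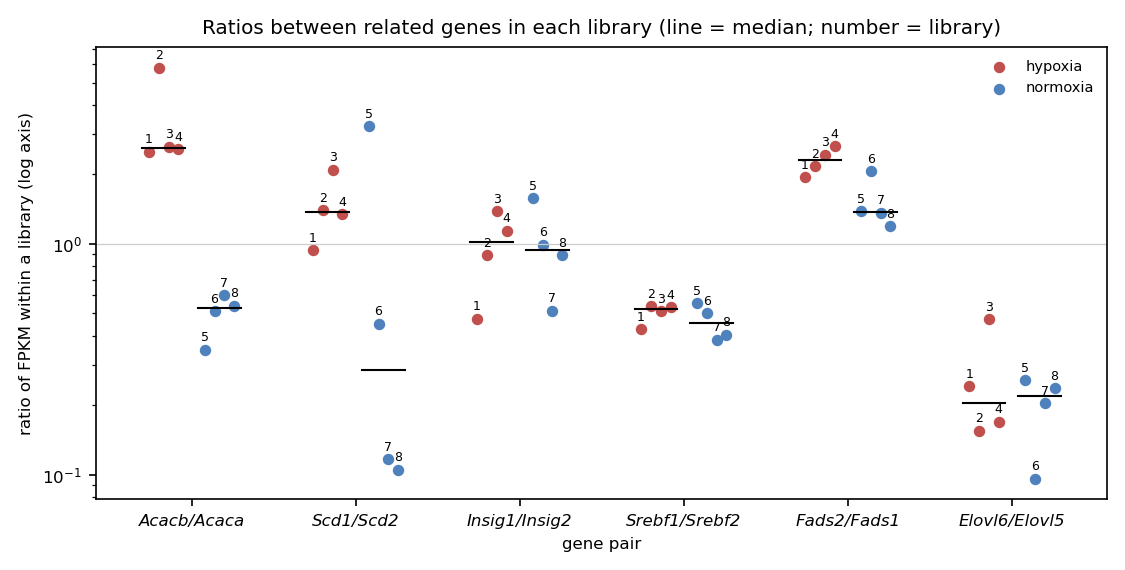
Ratio of the FPKM of related genes within each library on a log axis, hypoxia left of normoxia for each pair; the line is the group median and numbers are libraries. Only for Acacb over Acaca do the groups not overlap among the 6 pairs, with all hypoxia libraries above 1 and all normoxia libraries below 1.

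A ratio within a library does not depend on how that library was scaled. Acacb over Acaca was 2.51, 5.80, 2.63 and 2.57 after hypoxia, against 0.348, 0.510, 0.599 and 0.540 after normoxia, so that Acacb was the more abundant per length in each hypoxia library and Acaca in each normoxia library. Scd1 over Scd2 was 0.940, 1.40, 2.10 and 1.34 after hypoxia, against 3.24, 0.450, 0.117 and 0.105 after normoxia. Normoxia library 5 alone made these groups overlap. Fads2 over Fads1 spanned 1.95 to 2.66 after hypoxia and 1.20 to 2.06 after normoxia. Insig1 over Insig2, Srebf1 over Srebf2 and Elovl6 over Elovl5 had group medians of 1.02, 0.522 and 0.205 after hypoxia and 0.942, 0.452 and 0.220 after normoxia, and overlapped. The pairs were picked with the values known, so the ratios are a description, and a ratio shows unequal change without saying which gene moved.

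Squalene and sterol synthesis genes showed no passing change: of 11 genes none rose or fell, 8 log2 changes were above 0, and the median was 0.22. Cyp51 (ENSMUSG00000001467, chromosome 5, 4081145 to 4104746, minus strand) had 18.6, 19.5, 7.77 and 9.17 FPKM after hypoxia, against 8.07, 4.66, 7.87 and 2.53 FPKM after normoxia. Hypoxia libraries 1 and 2 were far above every normoxia library, while hypoxia library 3 lay between the normoxia values. The log2 change was 1.19 ± 0.63 (SE, limma adjusted p = 0.618). After TMM scaling Cyp51 had 14.9, 13.7, 12.01 and 13.8 scaled FPKM after hypoxia, against 9.56, 4.59, 4.04 and 3.25 scaled FPKM after normoxia. The scaled groups no longer overlapped, but how many of all tested genes also separate after TMM scaling was not counted. The limma adjusted p of Cyp51 was then 0.0714, or 0.0036 when normoxia library 5 was also left out.

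Genes of the earlier steps of that branch had log2 changes smaller than their standard errors. Fdft1, which joins farnesyl units into squalene, spanned 2.28 to 6.67 FPKM after hypoxia and 2.13 to 4.19 FPKM after normoxia. Sqle, the epoxidase after it, spanned 2.38 to 7.97 FPKM after hypoxia and 3.28 to 8.61 FPKM after normoxia. Lss, which closes the ring to lanosterol, was low at 0.59 to 0.80 FPKM after hypoxia and 0.50 to 0.98 FPKM after normoxia. Their log2 changes were 0.21, -0.12 and -0.03, with standard errors of 0.38 to 0.57.

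Of the later enzymes, Hsd17b7, a sterol ketone reductase, had 2.19, 2.31, 0.95 and 1.25 FPKM after hypoxia, against 0.63, 0.87, 1.85 and 0.70 FPKM after normoxia. Only normoxia library 7 reached the hypoxia values (log2 change 0.53 ± 0.44, SE, limma adjusted p = 0.876). Sc5d, a sterol desaturase, spanned 2.52 to 4.78 FPKM after hypoxia and 1.37 to 4.54 FPKM after normoxia, a log2 change of 0.48. Nsdhl, which removes a carboxyl group during sterol demethylation, spanned 3.96 to 12.4 FPKM after hypoxia and 4.04 to 9.23 FPKM after normoxia, a log2 change of 0.40. Ebp, a sterol isomerase, spanned 5.47 to 28.1 FPKM after hypoxia and 3.70 to 19.8 FPKM after normoxia, a log2 change of 0.28. These 3 genes were highest in hypoxia library 2 or 1. Dhcr7, a last-step reductase of cholesterol synthesis, spanned 0.84 to 1.5 FPKM after hypoxia and 0.27 to 1.73 FPKM after normoxia, a log2 change of 0.22. Tm7sf2, a sterol reductase gene, spanned 0.27 to 1.76 FPKM after hypoxia and 0.13 to 2.03 FPKM after normoxia, a log2 change of 0.04. Msmo1, a methyl oxidase that acts later in the pathway than Cyp51, had 3.48, 1.75, 1.53 and 1.28 FPKM after hypoxia, against 1.59, 1.87, 4.75 and 1.48 FPKM after normoxia. Its groups overlapped almost wholly (log2 change -0.17 ± 0.49, SE), unlike those of Cyp51.

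Mevalonate genes differed more between libraries than between groups. None of 6 passed, 2 log2 changes were above 0, and the group median was -0.11 as deposited, 0.060 with TMM scaling and 0.49 with TMM scaling without normoxia library 5, so its direction depended on the scaling. Hmgcs1 (ENSMUSG00000093930, chromosome 13, 119690379 to 119708260, plus strand), which makes the precursor of mevalonate, had 60.8, 50.97, 10.7 and 13.4 FPKM after hypoxia, against 14.9, 21.5, 34.99 and 6.42 FPKM after normoxia. Hypoxia libraries 1 and 2 were the highest, and 3 and 4 were below most normoxia libraries (log2 change 0.64 ± 0.78, SE, limma adjusted p = 0.968). Fdps (ENSMUSG00000059743, chromosome 3, 89093588 to 89101959, minus strand), which makes farnesyl diphosphate, the branch point to sterols and prenyl groups, went the other way. It had 3.06, 1.95, 0.67 and 0.61 FPKM after hypoxia, against 7.66, 1.65, 6.88 and 1.77 FPKM after normoxia. Normoxia libraries 5 and 7 were high, the groups overlapped, and the log2 change was -1.17 ± 0.56 (SE, limma adjusted p = 0.508).

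Mvk, the mevalonate kinase gene, spanned 0.52 to 2.07 FPKM after hypoxia and 0.87 to 5.6 FPKM after normoxia. Pmvk, the next kinase, spanned 1.64 to 6.32 FPKM after hypoxia and 1.22 to 8.93 FPKM after normoxia. Mvd, the decarboxylase that forms isopentenyl diphosphate, spanned 3.55 to 11.7 FPKM after hypoxia and 2.09 to 18.3 FPKM after normoxia. Each of these 3, and Fdps, had its highest value in normoxia library 5. Their log2 changes were -0.57, -0.13 and -0.09. Idi1, the isomerase of that product, spanned 0.74 to 6.48 FPKM after hypoxia and 0.97 to 6.38 FPKM after normoxia, a log2 change of 0.41 ± 0.58 (SE).

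SREBP control and sterol carrier genes had 5 of 6 log2 changes above 0 and a median of 0.41, and none of the 6 passed. The log2 changes of the transcription factor genes themselves were smaller than their standard errors. Srebf1, whose product drives mostly fatty acid genes, spanned 1.90 to 3.08 FPKM after hypoxia and 1.61 to 3.67 FPKM after normoxia (log2 change 0.09 ± 0.47, SE). Srebf2, whose product drives mostly sterol genes, spanned 3.71 to 5.99 FPKM after hypoxia and 2.91 to 9.56 FPKM after normoxia (-0.03 ± 0.56). Transcript level does not measure the cleavage that activates either factor. Insig1, a sterol-responsive brake on SCAP, had 3.31, 7.98, 2.94 and 3.00 FPKM after hypoxia, against 2.06, 2.57, 3.85 and 1.74 FPKM after normoxia. Hypoxia library 2 was high and normoxia library 7 overlapped the hypoxia values (log2 change 0.59 ± 0.52, SE, limma adjusted p = 0.898). Insig2, the second such brake, spanned 2.12 to 8.96 FPKM after hypoxia and 1.31 to 7.5 FPKM after normoxia, a log2 change of 0.60. Scap spanned 2.96 to 6.95 FPKM after hypoxia and 1.90 to 5.48 FPKM after normoxia, a log2 change of 0.26. Stard4, a carrier of cholesterol between membranes, spanned 2.84 to 5.13 FPKM after hypoxia and 1.46 to 4.82 FPKM after normoxia, a log2 change of 0.56. Normoxia library 7 held the highest normoxia value of all 3, for Insig2 well above the other normoxia libraries, which had at most 2.59 FPKM.

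The sequence upstream of the start is shown for Acacb and Cyp51, which had the largest log2 changes after Scd1. It is also shown for Hmgcs1, which holds a match to the sterol regulatory element in the form searched, TCACNCCAC. It was read from the RefSeq promoter table (GRCm38.p6), which holds 28 of the 35 genes. Each stretch runs 5′ to 3′ on the gene's own strand, over positions -200 to -51 relative to the annotated start, and capitals mark motif matches on either strand. In Cyp51 (chr5:4104748-4104897, minus strand) the capitals are a GC box. In Acacb (chr5:114165318-114165467, plus strand, inside the annotated span of the gene and before a later start) they are a CCAAT box. In Hmgcs1 (chr13:119690151-119690300, plus strand) they are, in order, a CCAAT box on the minus strand, a sterol regulatory element and a GC box on the minus strand.
Cyp51: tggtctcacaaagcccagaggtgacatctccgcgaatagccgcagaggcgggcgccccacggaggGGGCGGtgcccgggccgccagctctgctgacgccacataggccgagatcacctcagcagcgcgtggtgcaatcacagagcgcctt
Acacb: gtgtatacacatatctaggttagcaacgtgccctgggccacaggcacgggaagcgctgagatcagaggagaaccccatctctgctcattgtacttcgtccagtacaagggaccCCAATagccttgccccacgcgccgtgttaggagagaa
Hmgcs1: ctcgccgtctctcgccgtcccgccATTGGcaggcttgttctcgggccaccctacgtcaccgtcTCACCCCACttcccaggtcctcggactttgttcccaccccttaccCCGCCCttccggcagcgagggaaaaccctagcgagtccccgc

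In the 250 bases before the start, read on both strands with any start of a gene counted, the sterol regulatory element TCACNCCAC was found in 1 of the 28 genes (Hmgcs1), beside 1.32% of the 9696 tested genes in the table. The letters CCAAT, bound by NF-Y, a partner of SREBP, were found in 23 of the 28 genes, beside 39.9% of the tested genes in the table. The GC box GGGCGG, bound by Sp1, was found in 22 of the 28, beside 63.1%. The E-box CACGTG was found in 6 of the 28 (Dhcr7, Elovl5, Hsd17b7, Insig1, Sc5d and Scap), beside 9.81%. None of the 4 motifs contains another, and a match is a run of letters, not a shown binding site. Each motif was searched only in the letters given, so a missing match does not show that an element is absent. The 7 genes with no entry were Fdft1, Fads1, Scd1, Scd2, Sqle, Fdps and Stard4.

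The highest and lowest values of the 35 genes were concentrated in a few libraries. As deposited, the highest of the 8 values was in hypoxia library 2 for 13 genes and in normoxia library 7 for 11, and the lowest was in normoxia library 8 for 14 and in normoxia library 5 for 11. Hypoxia library 2 and normoxia library 7 were also 2 of the 3 libraries with the largest share of protein-coding fragments, at 56.7% and 60.3%, and normoxia library 5 had 56.8%. In hypoxia libraries 3 and 4 that share was 20.3% and 21.5%, against 28.6% in normoxia library 6 and 21.5% in normoxia library 8. With TMM scaling all tested genes had a median log2 change of 0.0081, against -0.14 as deposited.

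After that scaling, the median of the 35 genes, each taken relative to its own mean over the 8 libraries, was 0.20, 0.23, 0.25 and 0.21 on the log2 scale in the hypoxia libraries, against -0.20, -0.27, -0.25 and -0.27 in the normoxia libraries. The groups were apart and each was tight. The same median over the other tested genes lay between -0.063 and 0.038 in all 8 libraries. TMM scaling itself sets the bulk of genes to a common level, so those values near 0 are no control. How often other sets of 35 genes separate in this way was not counted, and the 35 were chosen with earlier results known. Squalene and sterol genes had medians between 0.19 and 0.36 in the hypoxia libraries, against -0.27 to -0.071 in the normoxia libraries. Elongation and desaturation genes had 0.16 to 0.67 in the hypoxia libraries, against -0.61 to -0.057 in the normoxia libraries. SREBP control genes had -0.028 to 0.32 in the hypoxia libraries, against -0.35 to -0.26 in the normoxia libraries. Fatty acid synthesis genes overlapped, with 0.058 to 0.44 in the hypoxia libraries, against -0.46 to 0.20 in the normoxia libraries. Mevalonate genes overlapped widely: normoxia library 5 was the highest at 1.55 and the other values lay between -0.62 and 0.21.

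**Figure D4:**
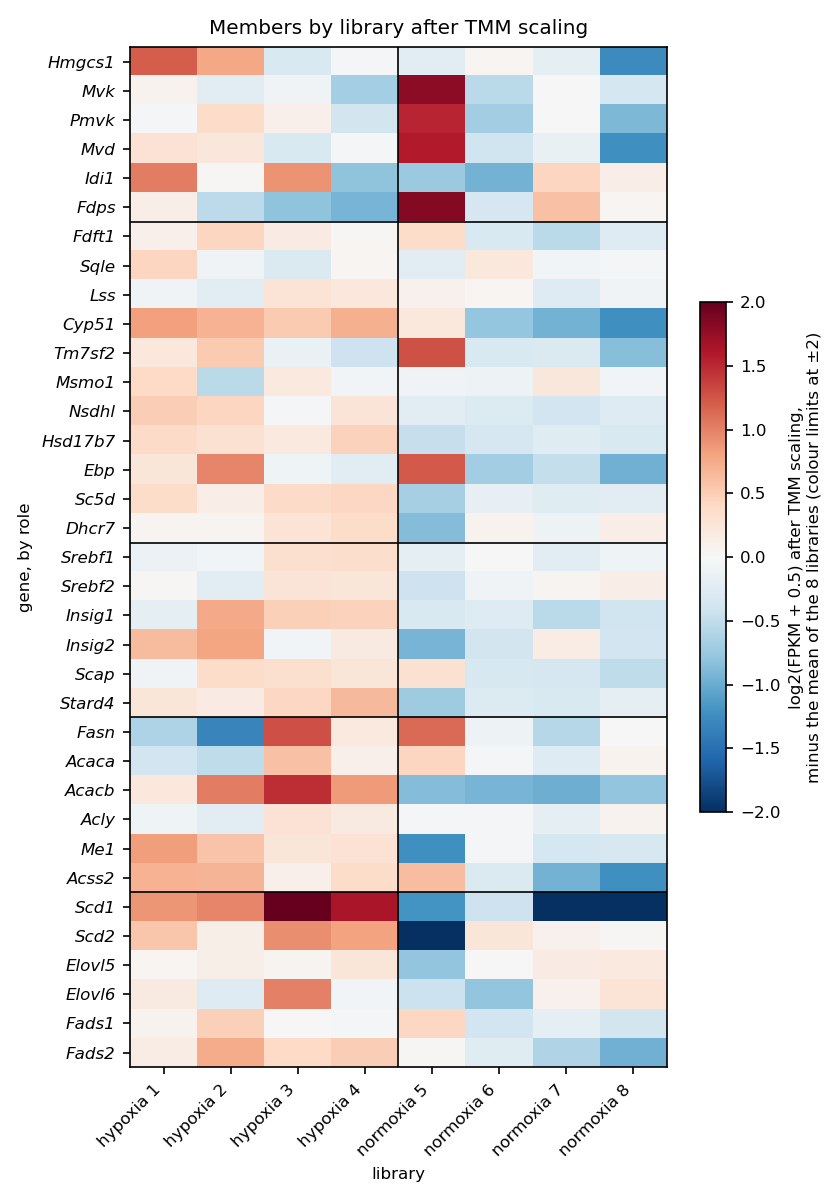
Log2(FPKM + 0.5) after TMM scaling minus the gene's mean over the 8 libraries, for the 35 genes (rows, by role) in each library (columns, hypoxia left of the black line and normoxia right of it); red is above and blue below the mean, and colours stop at 2. Acacb and Scd1 are red in all hypoxia columns and blue in all normoxia columns, and Mvk, Pmvk, Mvd and Fdps are dark red in normoxia library 5.

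With TMM scaling 2 of the 35 genes rose (Scd1 and Acacb), beside 1.18% of all tested genes, and none fell, beside 1.3%. When normoxia library 5 was also left out, 6 of the 35 rose, beside 5.74% of all tested genes, and none fell, beside 5.17%. The 6 were Scd1 (log2 change 3.03, limma adjusted p = 0.0145), Acacb (1.79, 0.0119), Cyp51 (1.67, 0.0036), Acss2 (1.29, 0.0204), Fads2 (1.05, 0.0297) and Hsd17b7 (0.64, 0.0363). The median of the 35 was then 0.54, against 0.027 for all tested genes. Relative to all tested genes, the median of the 35 lay between 0.30 and 0.51 in the 21 alternatives run.

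Related genes outside the 35 were held in 9 lists of 87 genes, of which 80 were tested. Of these 80, 1 rose (beside the 0.305% of all tested genes given above), none fell, 44 had a positive log2 change, and the median was 0.097. The gene that rose was Cyp7b1, which hydroxylates oxysterols and is on the list of sterol esterification and oxysterols. It had 12.6, 19.3, 3.08 and 3.83 FPKM after hypoxia, against 1.02, 0.60, 1.13 and 0.64 FPKM after normoxia. Its groups did not overlap (log2 change 2.59, limma adjusted p = 0.0243). In the same list Ch25h, which makes an oxysterol in macrophages, had a log2 change of -0.85 that did not pass, and the 6 tested genes of that list had a median of -0.38.

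Isoprenoid branch enzymes (10 tested) had a median of 0.15, and Fntb, a farnesyltransferase subunit, had a log2 change of -0.90 (limma adjusted p = 0.619). SREBP processing and sterol sensing genes (8 tested) had a median of 0.12, with Rnf145, a ubiquitin ligase, at 0.26. LXR and sterol efflux genes (7 tested) had a median of 0.0081, with Mylip, which degrades lipoprotein receptors, at 0.89 and the cholesterol exporter Abca1 at -0.52. None of these 25 genes passed as deposited. Nor did any of the lysosomal and intracellular sterol transport genes (9 tested, median -0.48), where Gramd1b, a sterol carrier of the endoplasmic reticulum, stood against its list at 0.94 and the lipoprotein receptor Scarb1 was at -0.66.

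Lipogenic regulators (10 tested) had a median of 0.31. Lpin1, a phosphatidate phosphatase and coactivator, had 3.03, 11.9, 3.2 and 2.6 FPKM after hypoxia, against 0.28, 1.76, 1.54 and 0.80 FPKM after normoxia. Its groups did not overlap (log2 change 1.69, limma adjusted p = 0.152), and it passed with TMM scaling (1.85, limma adjusted p = 0.0455). Ppargc1b, a coactivator, had a log2 change of 0.78 (adjusted p = 0.618). NADPH and acetyl-CoA supply genes (10 tested) had a median of 0.14, with the ligase Aacs at 1.24 and the mitochondrial acetyl-CoA synthetase Acss1 at 1.35. Other elongation cycle enzymes (8 tested) had a median of -0.019, with Elovl2 at 0.45 and Elovl1 at -0.37. Glycerolipid and lipid droplet genes (12 tested) had a median of 0.31, with the droplet coat genes Plin4 at 0.88 and Plin2 at -1.35. None of these 40 genes passed as deposited. With TMM scaling 3 of the 80 rose, beside 1.18% of all tested genes, and none fell, beside 1.3%. Without normoxia library 5 as well 13 rose, beside 5.74% of all tested genes, and 1, Ch25h, fell, beside 5.17%.

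Adipose tissue around the kidney expresses Scd1, Fasn and Acacb strongly, so adipocyte markers were read beside them. Of 10 markers 7 were tested and none passed, but all 7 log2 changes were above 0, with a median of 0.69 as deposited and 1.05 with TMM scaling without normoxia library 5. Their summed level was 11.8, 16.02, 67.7 and 14.4 FPKM after hypoxia, against 20.9, 14.1, 14.6 and 2.30 FPKM after normoxia. Hypoxia library 3 was by far the highest, with 17 FPKM of the brown fat gene Ucp1, 26.1 FPKM of Cfd and 2.46 FPKM of Adipoq. Lep was at 0 in all 8 libraries, and Adipoq was at 0 in hypoxia libraries 1 and 2 and normoxia libraries 7 and 8. In those 4 libraries Scd1 had 12.9 and 15.8 FPKM after hypoxia, against 1.77 and 0.61 FPKM after normoxia, and Acacb had 2.11 and 4.76 FPKM after hypoxia, against 0.91 and 0.47 FPKM after normoxia. The sum of all 10 markers in these libraries was 11.8 and 16.02 FPKM after hypoxia, against 14.6 and 2.30 FPKM after normoxia. In hypoxia library 2 the marker sum was mostly Fabp4 (12.5 FPKM), a gene that endothelial cells also express. Without hypoxia library 3 and normoxia library 5 the log2 change of Scd1 was 2.63 (limma adjusted p = 0.0842), an alternative chosen after seeing the values. For Fasn, hypoxia library 3 and normoxia library 5 were the highest of their groups in both Fasn and the marker sum, and the part of adipose tissue in the values of Fasn, Scd1 and Acacb was not tested.

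**Figure D5:**
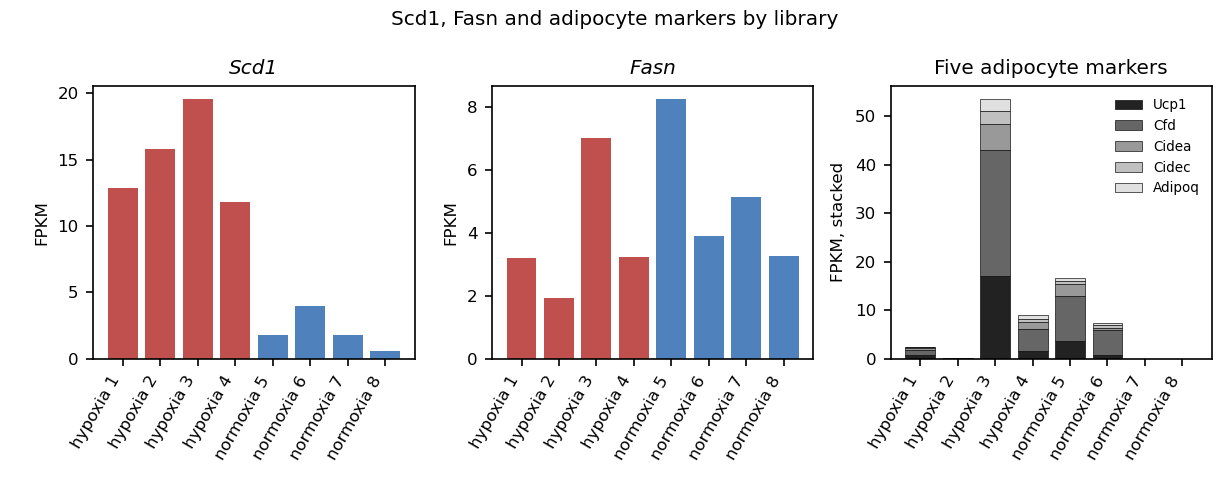
FPKM of Scd1 (left) and Fasn (middle) and stacked FPKM of 5 adipocyte markers (right) in each library, hypoxia left of normoxia, on linear axes from 0. The marker stack is tallest in hypoxia library 3 and next in normoxia library 5, and Scd1 is high in all 4 hypoxia libraries. The 5 markers were picked with their values known, and the sum of all 10 was 11.8 and 16.02 FPKM in hypoxia libraries 1 and 2, where the stack is low.

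Adrenal cortex, a gland beside the kidney rich in sterol enzymes, left little trace: 1 of 8 markers passed the filter, their summed level was 0.18 to 0.97 FPKM after hypoxia and 0.54 to 0.99 FPKM after normoxia, and Cyp11b1, Cyp11b2 and Cyp21a1 were at 0 in all 8 libraries. Markers of kidney cell types and states differed more between the groups. Proximal tubule markers (10 tested) had a median log2 change of 1.16 with none passing, and summed to 2558 to 13077 FPKM after hypoxia and 285.3 to 10164 FPKM after normoxia. Thick ascending limb and distal tubule markers (8 tested) had 2 that rose, Pvalb and Calb1, a median of 1.38, and sums of 407.1 to 1713 FPKM after hypoxia and 160.1 to 581.8 FPKM after normoxia. Tubular injury markers (8 tested) had 3 that fell, Sox9, Cd44 and Krt20, a median of -2.52, and sums of 259.9 to 2501 FPKM after hypoxia and 1670 to 4861 FPKM after normoxia. Macrophage markers (10 tested) had none passing, a median of -1.90, and sums of 22.6 to 113.5 FPKM after hypoxia and 134.8 to 837.9 FPKM after normoxia. Proliferation markers (8 tested) had 5 that fell, a median of -2.41, and sums of 4.17 to 23.9 FPKM after hypoxia and 22.9 to 144.1 FPKM after normoxia. Fibroblast markers (8 tested, none passing) had a median of -0.86, and sums of 21.8 to 46.4 FPKM after hypoxia and 54.7 to 248.5 FPKM after normoxia. Endothelial markers (8 tested, none passing) had a median of 0.33, and sums of 38.3 to 97.8 FPKM after hypoxia and 28.5 to 92.5 FPKM after normoxia. With TMM scaling without normoxia library 5, 6 of the 10 proximal tubule markers rose (median 1.76), 5 of the 8 thick ascending limb and distal tubule markers rose, and 6 of the 8 injury, 8 of the 10 macrophage, 4 of the 8 fibroblast and 8 of the 8 proliferation markers fell. In that setting 5.74% of all tested genes rose and 5.17% fell. What part these marker shifts have in the values of the 35 genes was not tested.

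Some of the 35 share exon sequence with neighbours in the GENCODE M21 annotation. Fdft1 overlaps 774 bases of Ctsb on the opposite strand, and Ctsb reached 142.5 FPKM, far above Fdft1. Acss2 overlaps Gss on the opposite strand, which reached 44.3 FPKM. Tm7sf2 overlaps 532 bases of Vps51 on the same strand, which reached 9.02 FPKM. Cyp51 overlaps Akap9 on the opposite strand, at no more than 3.07 FPKM. Hmgcs1 and Fdps overlap gene models that reached 1.23 and 1.02 FPKM. The libraries were made with a stranded kit, but whether strand was used in counting is not given in the sources used here, so the values of Fdft1, Acss2 and Tm7sf2 are uncertain. Scd1 and Acacb share no exon with another gene in that annotation.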

How the data were processed

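Poly(A) RNA of flash-frozen kidneys was sequenced from stranded libraries, per the labels' protocols. Per the submitters' processing notes the tools were HISAT2, StringTie and edgeR, without versions or roles. Neither build nor annotation is given in the sources used here. Values were deposited as FPKM: the authors gave FPKM per gene and library to 2 decimals, per the file headers, with no recorded scaling between libraries and no counts. All 34450 gene identifiers matched GENCODE M21 (GRCm38), which gave symbols, exon lengths and coordinates.

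FPKM was tested as log2(FPKM + 0.5), a scale that understates changes of low genes, in genes with a mean of at least 0.5 FPKM, with lmFit and trended eBayes of limma 3.58.1 under R 4.3.3 (two-sided, group as the only factor, Benjamini-Hochberg over all genes tested, threshold 0.05). Every adjusted p is from limma. The step was tested on simulated data. It recovered 41 of the genes changed by 2 on the log2 scale and 88 of as many with a larger change. Of its 138 calls 9 were false. A gene that did not pass may therefore still have changed. TMM factors were trimmed means of log2 ratios (30% of ratios and 5% of levels), used as scaling only. Depth was estimated from the spacing of low FPKM values and has no interval. Ribosomal and protein-coding shares are FPKM times exon length. The 35 genes, all of them named, and the lists were chosen with earlier results of these data known. Of each pathway list up to 4 passing genes, or the 2 with the smallest p, were to be named, and some of these are not reported here. Promoter windows came from the RefSeq table of GRCm38.p6. Alternatives were other pseudocounts, filters, scalings and thresholds, a length correction, averaging of paired hypoxia libraries and each library left out.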

Additional observations from a re-analysis of the deposited data

Results flagged for a closer look

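In each of 70 groups of 4 values (35 genes in 2 groups), the gap between the extreme library and its nearest neighbour was set against the range of the group, and 3 groups passed Dixon's critical value for groups of 4. Chance alone gives about 1 in 20. Insig1 had 7.98 FPKM in hypoxia library 2, against 2.94 to 3.31 FPKM in the other hypoxia libraries. Msmo1 had 4.75 FPKM in normoxia library 7, against 1.48 to 1.87 FPKM in the other normoxia libraries. Acacb had 0.91 FPKM in normoxia library 7, against 0.46 to 0.51 FPKM in the other normoxia libraries. Hypoxia library 2 and normoxia library 7 held the highest values of 13 and 11 of the 35 genes and had the largest TMM factors of their groups (1.43 and 1.95). After TMM scaling Acacb had 0.467 scaled FPKM in normoxia library 7, against 0.502 to 0.603 in the other normoxia libraries.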

How the results depend on the processing

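Counts of genes among the 35, and over all tested genes, moved with the processing. The median log2 change of the 35 was 0.26 as reported. It was 0.030 without hypoxia library 2, 0.063 without normoxia library 8 and 0.14 without hypoxia library 1. It was 0.47 without normoxia library 7, and 0.54 with TMM scaling without normoxia library 5. These moves were smaller than the SD between libraries of a group (0.51) in the median log2(FPKM + 0.5) of the 35. That SD was 0.17 relative to the median of all tested genes in each library. Both SDs describe single libraries and are not the error of the difference between groups. The count higher among the 35, 1 as reported, was 0 with no filter (3 at an unadjusted p under 0.05 in limma), 2 with TMM scaling, 3 with quantile normalization, 3 with scaling to protein-coding fragments, 2 at an adjusted p under 0.10, 6 with TMM scaling without normoxia library 5 and 0 with hypoxia libraries averaged to 2 samples. It was 0 to 1 with one library left out. None of the 35 was lower in any alternative run (0 to 1 at an unadjusted p under 0.05). All genes higher and lower, 44 and 87 as reported, became 0 and 0 with no filter (665 and 1356 at an unadjusted p under 0.05, with limma's adjustment over 30982 genes), 171 and 188 with TMM scaling, 280 and 349 with quantile normalization, 148 and 228 with scaling to protein-coding fragments, 74 and 201 at 0.10, 827 and 745 with TMM scaling without normoxia library 5, and 22 and 5 with averaged hypoxia libraries. With one library left out they spanned 11 to 67 and 4 to 237, and 47 were lower with a pseudocount of 1. Of 2 alternatives chosen after seeing the data, scaling to protein-coding fragments without normoxia library 5 gave 4 higher among the 35, and 544 higher and 1301 lower of all, and leaving out hypoxia library 3 and normoxia library 5 gave 0 higher among the 35 and 26 lower of all. Cyp51 passed in 4 and Acacb in 6 alternatives, and Scd1 in 16 of 21. Between 0 and 9 of the 35 had a log2 change of the other sign in an alternative, none of them past the threshold. No paired analysis was possible because the replicate numbers, 1 to 4 and 5 to 8, share none. Except where stated, the cause was not tested. Depth limits low genes with short exon sequence most. Tm7sf2 (4403 exon bases) fell to 0.13 FPKM in normoxia library 8. Lss and Acaca were also near 1 FPKM, but their longer exon sequence (10787 and 17074 bases) gives more fragments at the same FPKM.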
